A study of Homo sapiens with 12 samples.

Results

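The BCL2 family decides whether the outer mitochondrial membrane stays closed or opens during apoptosis. Members were selected as the genes in the Ribo-seq table of HCT116 cells that carry 1 of 10 family symbols. All 10 were present among the 15798 genes of the table, comprising 6 BH3-only genes (BCL2L11, BMF, BBC3, PMAIP1, BID and BAD), 2 effectors (BAX and BAK1) and 2 anti-apoptotic genes (MCL1 and BCL2L1). Effector proteins form the pores through which cytochrome c leaves the mitochondria, anti-apoptotic proteins hold effectors and BH3-only proteins in a groove on their surface, and BH3-only proteins relay stress by filling that groove or by activating the effectors directly. Growth factor signaling through MEK and ERK is known to restrain several BH3-only proteins and to sustain anti-apoptotic ones, so the family is often examined when MEK is inhibited in tumor cells.

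HCT116, a human colorectal cancer cell line, received either 100 nM trametinib, which blocks the kinases MEK1/2, or DMSO as the solvent control, for 24 h. From each treatment there were 3 input libraries, made from fragmented cytoplasmic RNA, and 3 footprint libraries, made from the mRNA fragments that ribosomes protect against RNase I. In all 12 libraries the cells had received cycloheximide, which halts elongating ribosomes, shortly before lysis. The labels give 1 cell line, 1 dose and 1 time point, and nothing in them ties replicates to separate cultures beyond a number. A figure legend of the study speaks of 3 biological replicates, without saying how the cultures were separated. The p-values measure the spread between these libraries. An input library held 2276693 to 2845568 counted reads and a footprint library 10127477 to 19181588, so that footprints were the more precise measurement (median SE over all tested genes 0.16 on the log2 scale, against 0.23 in input and 0.28 in ribosome density).

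Levels are given as CPM, the counts of a gene per 1000000 counts of its library, scaled by the trimmed mean of M-values (TMM) within each assay. A change is the log2 ratio of trametinib to DMSO, and a gene was called when its edgeR quasi-likelihood p-value, adjusted by Benjamini-Hochberg over the 12000 tested genes, was under 0.05. Ribosome density is footprints relative to input, and its change was tested as the interaction of assay and treatment over the 12 libraries. Ratios of footprint CPM to input CPM are given for libraries with the same replicate number. The labels do not say that a number marks 1 dish, so these ratios assume it. Scaling to library totals removes a change that affects all mRNAs alike. The study reports a global reduction of protein synthesis in trametinib-treated cells of this line, by polysome profiling and puromycin incorporation. Footprint changes given here are therefore relative to the other mRNAs of a library. A higher or unchanged footprint level need not mean higher or unchanged synthesis of that protein. In bulk lysates fewer expressing cells and less RNA per cell cannot be told apart. Counts per gene do not separate splice forms, which matters for MCL1 and BCL2L1, whose short forms are known to oppose the long ones.

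The treatment was visible in ERK pathway output. All 10 of 10 listed output genes fell, with a median of -4.75 in input and -5.04 in footprints, led in list order by the phosphatase genes DUSP4, DUSP5 and DUSP6. Of 8 epithelial markers, 6 passed the filter, while VIL1 and CDH17 were at or near 0. The summed epithelial level was 4926 to 7540 CPM in DMSO input and 8177 to 10345 CPM in trametinib input. Of 8 leukocyte, endothelial, fibroblast and muscle markers 3 passed the filter (COL1A1, ACTA2 and DES), and the defining leukocyte genes PTPRC and CD3E had 2 reads each over all 12 libraries. The summed level of these 8 was 16.4 to 25.1 CPM in DMSO input, 17.9 to 27.8 CPM in trametinib input, 22.5 to 24.8 CPM in DMSO footprints and 28.1 to 31.4 CPM in trametinib footprints. The part of these shifts in the results was not tested.

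The DMSO replicates differed among each other, and number 1 deviated alike in both assays. In input, 20.3% of genes in replicate 1 and 22.1% in replicate 3 lay over 0.5 log2 units from the other 2 libraries. In footprints these shares were 19.8% and 10.3%. The input and footprint libraries of replicate 1 deviated from the DMSO mean together (r = 0.82 across 7669 genes, which are not independent replicates). For the other DMSO numbers r was 0.18 and 0.34, and in trametinib it was -0.13 to 0.14. Replicate 1 had the highest level of the 3 DMSO libraries in both assays for 5 of 10 members, against 24.0% of all tested genes. These were BMF, on 1 input read, BBC3, PMAIP1, MCL1 and BCL2L1. Replicate 1 was the lowest in both assays for BID and BAX, 2 of 10, against 23.7%. Changes of the members in input and footprints are therefore also given without the library of this replicate in that assay.

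The feature that unites the family is the BH3 motif, a short helix that BH3-only proteins insert into the groove of their partners. Its core can be traced in the coding sequence as a leucine, 3 free residues, a small residue (glycine, alanine or serine) and an aspartate. The 30 coding bases that begin at this leucine are shown for all 10 members. In the 6 BH3-only proteins this is the element that enters the groove of a partner. Capitals mark the 2 codons for the small residue and the aspartate. Coordinates are 1-based on GRCh38 with Gencode version 44, every stretch lies within 1 coding exon of the canonical transcript, and sequences run in coding direction.
BCL2L11 (chr2:111150103-111150132, plus strand): ttgcggcgtattGGAGACgagtttaacgct
BMF (chr15:40104195-40104224, minus strand): cttcagtgcattGCAGACcagttccaccgg
BBC3 (chr19:47226579-47226608, minus strand): ctgcggcggatgGCGGACgacctcaacgca
PMAIP1 (chr18:59902673-59902702, plus strand): ctcaggagatttGGAGACaaactgaacttc
BID (chr22:17739415-17739444, minus strand): ctcgcccaggtcGGGGACagcatggaccgt
BAD (chr11:64271622-64271651, minus strand): ctccggaggatgAGTGACgagtttgtggac
BAX (chr19:48955787-48955816, plus strand): ctcaagcgcatcGGGGACgaactggacagt
BAK1 (chr6:33575387-33575416, minus strand): ctcgccatcatcGGGGACgacatcaaccga
MCL1 (chr1:150578865-150578894, minus strand): ttacgacgggttGGGGATggcgtgcagcgc
BCL2L1 (chr20:31721922-31721951, minus strand): ctgagggaggcaGGCGACgagtttgaactg

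The small residue was glycine in 7 members, alanine in BMF and BBC3, and serine in BAD. BID held the pattern 2 times, and the match shown begins at codon 90 of 195, its known BH3 domain, while the other begins at codon 25. The other 9 members had 1 match each. On its own the pattern is not specific, as 34.6% of 20020 canonical coding sequences hold it at least once. The position within the protein differed, from codon 29 of 54 in PMAIP1 to codon 213 of 350 in MCL1. No member's coding sequence overlapped that of another gene on the same strand in Gencode version 44, which bears on the counts because reads shared between the reading frames of several gene symbols were left out.

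In input, trametinib raised BMF and BBC3 and lowered PMAIP1 and BCL2L1. These were 2 of 10 members higher, against 13.9% of all tested genes, and 2 of 10 lower, against 15.5%. In footprints 4 members were higher (BCL2L11, BMF, BID and BAX), against 24% of all genes, and 2 were lower (PMAIP1 and BCL2L1), against 24.4%. BMF, counted as higher in both assays, passed the filter on low counts only through its trametinib libraries. By the weaker criterion that the 3 trametinib libraries do not overlap with the 3 DMSO libraries, 5 members were separated in input (3 higher, 2 lower), against 44.5% of all genes, and 7 in footprints (4 higher, against 29.7%, and 3 lower, against 29.1%), with 58.8% of all genes in either direction. Ribosome density was called for 0 of 10 members with edgeR, against 0.05% of genes higher and 0.75% lower. In that fit, which has no block, 0 of 10 reached an unadjusted p-value under 0.05. With a block for each treatment and replicate number, edgeR also called 0 members, against 25 of 12000 genes higher and 135 lower. The unadjusted p-value was then under 0.05 for PMAIP1, BBC3 and BCL2L1. The limma and DESeq2 fits also called 0 members in ribosome density, but DESeq2 gave no adjusted p-value there for BCL2L11, BMF and BAK1.

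**Figure D1:**
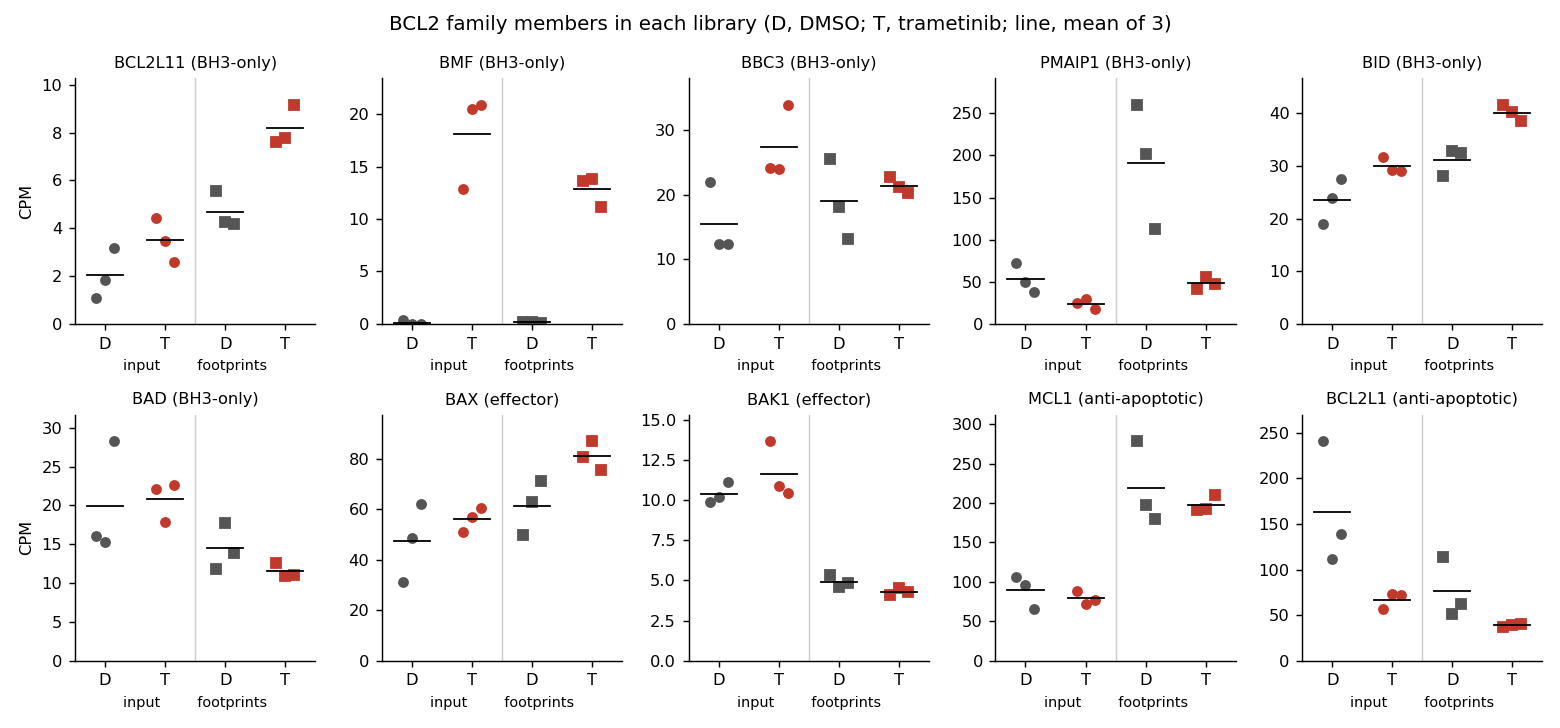
CPM of the 10 members in each of the 12 libraries, with DMSO (D, grey) and trametinib (T, red) side by side in input (circles) and footprints (squares), each panel on its own linear axis from 0, and a line at the mean of 3. BMF was near 0 in DMSO in both assays, PMAIP1 and BCL2L1 were lower in every trametinib library than in any DMSO library of the same assay, and the leftmost DMSO points are replicate 1.

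BMF encodes a BH3-only protein known to be held at the cytoskeleton in attached cells, and it showed the largest change of the 10. It had 1, 0 and 0 reads in the DMSO input libraries and 32, 47 and 48 reads under trametinib. In footprints it had 4, 2 and 2 reads in DMSO and 279, 212 and 148 under trametinib. The groups were far apart in both assays, and BMF was the least abundant member per kilobase in DMSO and overlapped with BAD under trametinib. The ratio of counting rates, trametinib over DMSO, was 143 in input, with an exact 95% interval of 25.3 to 5710 that covers counting error only, and 71.0 in footprints, with an interval of 35.8 to 165. The edgeR change in footprints was 6.07 (SE 0.40, adjusted p = 6.71e-07), and input was called as well (adjusted p = 1.63e-06), although the fitted input value of 6.69 depends on the prior count because DMSO had 1 read in all. BMF reached 10 counts in 0 DMSO and 6 trametinib libraries, so it passed the filter on low counts only through its trametinib libraries. Its p-values are therefore no support beyond the read counts themselves. Without DMSO replicate 1 the footprint change was 6.35, and the DMSO input libraries left held 0 reads. Its ribosome density change of -0.95 (adjusted p = 0.956) rests on a single DMSO input read.

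BCL2L11 encodes BIM, an activator BH3-only protein that ERK is known to phosphorylate and mark for degradation. In input it had 3, 5 and 8 reads in DMSO and 11, 8 and 6 under trametinib, too few for a firm comparison, and the groups overlapped. In footprints its level was 5.57, 4.25 and 4.17 CPM in DMSO and 7.61, 7.77 and 9.16 CPM under trametinib. Every trametinib footprint library was above every DMSO library. The footprint change was 0.80 (SE 0.18, adjusted p = 0.0065), a 1.74-fold rise, and it was 0.95 without DMSO replicate 1 (adjusted p = 0.000556). The input change was also 0.80 but with an SE of 0.51 (adjusted p = 0.251, 95% interval -0.30 to 1.89), and its counting ratio of 1.76 had an interval of 0.906 to 3.54. That input change was 0.49 without DMSO replicate 1. Ribosome density differed by 0.02 (SE 0.48, adjusted p = 0.999), with a 95% interval that reached 1.05, so that a rise of 2-fold would not have been detected at this depth. It was 0.49 when DMSO replicate 1 was left out of both assays (adjusted p = 0.854).

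BBC3 encodes PUMA, a BH3-only protein that binds all anti-apoptotic partners. Its input level was 21.9, 12.4 and 12.3 CPM in DMSO and 24.1, 24.0 and 33.9 CPM under trametinib. In footprints the level was 25.6, 18.2 and 13.2 CPM in DMSO and 22.7, 21.1 and 20.3 CPM under trametinib. Input did not overlap between the groups, whereas the trametinib footprints lay inside the wide DMSO range. The input change was 0.81 (SE 0.27, adjusted p = 0.0350), and the call was lost when any of the other 5 input libraries than DMSO replicate 1 was left out (adjusted p 0.0585 to 0.159) and when all 12 libraries shared 1 fit (adjusted p = 0.0517). Leaving out DMSO replicate 1 raised the input change to 1.13 (adjusted p = 0.0021). The footprint change was 0.17 (SE 0.22, adjusted p = 0.542), and without DMSO replicate 1 it was 0.48 (adjusted p = 0.0155). The ribosome density change was -0.60 (SE 0.37, 95% interval -1.39 to 0.18, adjusted p = 0.79). It was also -0.60 with a block for each treatment and replicate number (unadjusted p = 0.0278, edgeR adjusted p = 0.357).

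PMAIP1 encodes NOXA, a small BH3-only protein that binds MCL1 and promotes its turnover. It was the only BH3-only member called lower in either assay. Its input level was 72.8, 49.8 and 38.2 CPM in DMSO and 24.5, 29.6 and 17.8 CPM under trametinib, a change of -1.16 (SE 0.26, adjusted p = 0.0038), or 2.23-fold lower. In footprints it was 260, 201 and 112 CPM in DMSO and 41.0, 55.5 and 47.8 CPM under trametinib, a change of -1.99 (SE 0.27, adjusted p = 0.000418), or 3.98-fold lower. The groups did not overlap in either assay, and within DMSO the level was highest in replicate 1 and lowest in replicate 3. Without DMSO replicate 1 the changes were -0.89 in input and -1.70 in footprints, and both were still called. The ratio of footprint CPM to input CPM of PMAIP1 was 3.57, 4.04 and 2.94 for the DMSO numbers and 1.67, 1.87 and 2.68 for the trametinib numbers. These did not overlap, and neither did the ratios of BBC3, BAK1 and BCL2L1. The share of all genes without overlap in this ratio was not computed. In input and footprints alone that share was 44.5% and 58.8%. The ribosome density change was -0.80 (SE 0.42, 95% interval -1.69 to 0.09, adjusted p = 0.707). With a block for each treatment and replicate number it was -0.78 (unadjusted p = 0.00197, edgeR adjusted p = 0.0982), which also did not pass.

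BID links death receptors to mitochondria once caspase-8 has cleaved it. It had 19.0, 24.0 and 27.5 CPM in DMSO input and 31.8, 29.2 and 29.2 CPM in trametinib input. Footprints were 28.0, 32.8 and 32.4 CPM in DMSO and 41.6, 40.3 and 38.6 CPM under trametinib. Both assays separated the groups, but by small steps. The footprint change was 0.37 (SE 0.12, adjusted p = 0.0253) and the input change 0.36 (SE 0.20, adjusted p = 0.209). The footprint call was lost when any 1 trametinib library was left out (adjusted p 0.054 to 0.12), while the change itself stayed between 0.30 and 0.41. With DMSO replicate 1 left out it was 0.30 (adjusted p = 0.0264), and the input change was 0.22.

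BAD, a BH3-only protein kept inactive when survival kinases phosphorylate it, was not called in any comparison. Its input level was 16.1, 15.3 and 28.2 CPM in DMSO and 22.1, 17.9 and 22.6 CPM under trametinib. Its footprints were 11.8, 17.7 and 13.9 CPM in DMSO and 12.6, 10.9 and 11.04 CPM under trametinib. The groups overlapped in both assays. The changes were 0.08 in input (95% interval -0.49 to 0.64) and -0.32 in footprints (95% interval -0.71 to 0.08). The footprint change was -0.44 and was called when DMSO replicate 1 was left out (adjusted p = 0.0247), while the input change was then -0.06.

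**Figure D2:**
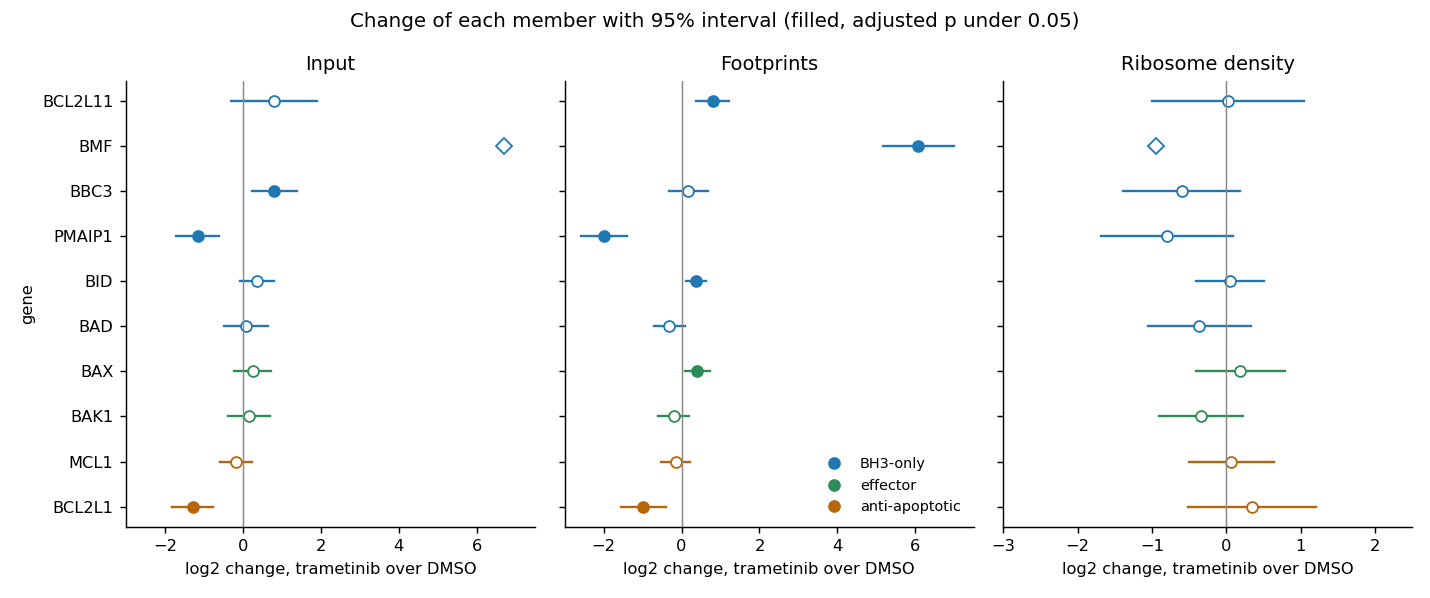
Log2 change of each member, trametinib over DMSO, in input, footprints and ribosome density, with 95% intervals and filled circles for adjusted p under 0.05, colored by role. BMF is an open diamond without an interval in input, where it was called but DMSO had 1 read, and in ribosome density, and the intervals of the other 9 members in ribosome density all include 0.

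The effector genes moved little. BAX, which shuttles from the cytosol to the mitochondria on activation, had 31.1, 48.7 and 62.1 CPM in DMSO input and 51.1, 57.1 and 60.5 CPM in trametinib input. Its footprints were 49.9, 62.8 and 71.1 CPM in DMSO and 80.6, 86.8 and 75.5 CPM under trametinib. Input overlapped while footprints did not, and the lowest DMSO value in both assays was replicate 1. The footprint change was 0.40 (SE 0.14, adjusted p = 0.0414), and the input change was 0.25 (SE 0.22, adjusted p = 0.433). The footprint call was lost when DMSO replicate 2 or any trametinib library was left out (adjusted p 0.0684 to 0.149) and with all 12 libraries in 1 fit (adjusted p = 0.0962), and without DMSO replicate 1 the change was 0.27 (adjusted p = 0.0414). In input the change without that replicate was 0.01 (adjusted p = 0.968), so the input value rests on it.

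BAK1, which resides in the outer mitochondrial membrane, had 9.88, 10.2 and 11.1 CPM in DMSO input and 13.7, 10.9 and 10.4 CPM in trametinib input. Its footprints were 5.34, 4.57 and 4.87 CPM in DMSO and 4.10, 4.50 and 4.28 CPM under trametinib. The footprint groups touched without overlapping, but the change of -0.21 (SE 0.17, adjusted p = 0.344, 95% interval -0.59 to 0.18) did not pass. The input change was 0.17 (SE 0.25, adjusted p = 0.649), and the ribosome density change was -0.34 (95% interval -0.91 to 0.23). Leaving out DMSO replicate 1 gave -0.15 in footprints and 0.13 in input.

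BCL2L1 encodes BCL-XL, an anti-apoptotic protein on which many epithelial tumor cells depend, and it fell in both assays. Its input level was 241, 111 and 139 CPM in DMSO and 56.3, 72.8 and 71.8 CPM under trametinib. In footprints it was 114, 51.6 and 62.5 CPM in DMSO and 36.8, 39.1 and 40.1 CPM under trametinib. The groups did not overlap, and DMSO replicate 1 was well above the other DMSO libraries in both assays. The change was -1.29 in input (SE 0.25, adjusted p = 0.00152), or 2.45-fold lower, and -0.98 in footprints (SE 0.25, adjusted p = 0.0119), or 1.97-fold lower. Without DMSO replicate 1 these became -0.91 (adjusted p = 0.000442) and -0.57 (adjusted p = 0.000639), smaller in size but still called. Its ratio of footprint CPM to input CPM was 0.474, 0.463 and 0.450 for the DMSO numbers and 0.654, 0.537 and 0.558 for the trametinib numbers. That ratio varied little in DMSO although the level itself varied by over 2-fold, and the trametinib values lay above it. The ribosome density change of 0.34 (SE 0.40, 95% interval -0.52 to 1.198, adjusted p = 0.947) did not pass, and with a block for each treatment and replicate number it was 0.36 (unadjusted p = 0.0411, edgeR adjusted p = 0.413).

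MCL1, the anti-apoptotic member with the shortest-lived protein, was not called in any comparison. Its input level was 106, 96.0 and 65.2 CPM in DMSO and 88.0, 72.3 and 76.6 CPM under trametinib. Its footprints were 278, 198 and 180 CPM in DMSO and 191, 192 and 210 CPM under trametinib. The trametinib libraries lay within the DMSO range in both assays. The changes were -0.17 in input (95% interval -0.59 to 0.24) and -0.14 in footprints (95% interval -0.52 to 0.23). These leave room for a decrease of about 1.5-fold but not for one of the size fitted for BCL2L1 over the same libraries. In footprints the BCL2L1 interval of -1.56 to -0.40 overlapped that of MCL1, and the difference between the 2 genes was not tested. The input change was -0.04 without DMSO replicate 1 (adjusted p = 0.893). In footprints the sign depended on DMSO replicate 1, with 0.07 without it, and on the scaling, with 0.04 when library totals were used. Ribosome density differed by 0.06 (95% interval -0.51 to 0.64).

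Among the DMSO replicates several members deviated in the same direction in both assays, while others did not. Against the mean of the other 2 DMSO libraries, on the scale of log2 of CPM plus 0.5, replicate 1 was higher for BCL2L1 by 0.95 in input and 1.00 in footprints, for PMAIP1 by 0.73 and 0.79, and for BBC3 by 0.81 and 0.71. For BAX, replicate 1 differed by -0.81 in input and -0.42 in footprints. Replicate 3 differed by -0.65 in input and -1.02 in footprints for PMAIP1, and by -0.63 and -0.38 for MCL1. Directions were opposite in replicate 1 for BCL2L11 (-0.87 in input and 0.37 in footprints) and BAK1 (-0.10 and 0.16). They were also opposite in replicate 2 for BAD (-0.47 and 0.46). Trametinib libraries scattered less, since the share of genes more than 0.5 away from the other 2 libraries of their group was 0.43% to 7.07% in trametinib and 4.81% to 22.1% in DMSO.

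**Figure D3:**
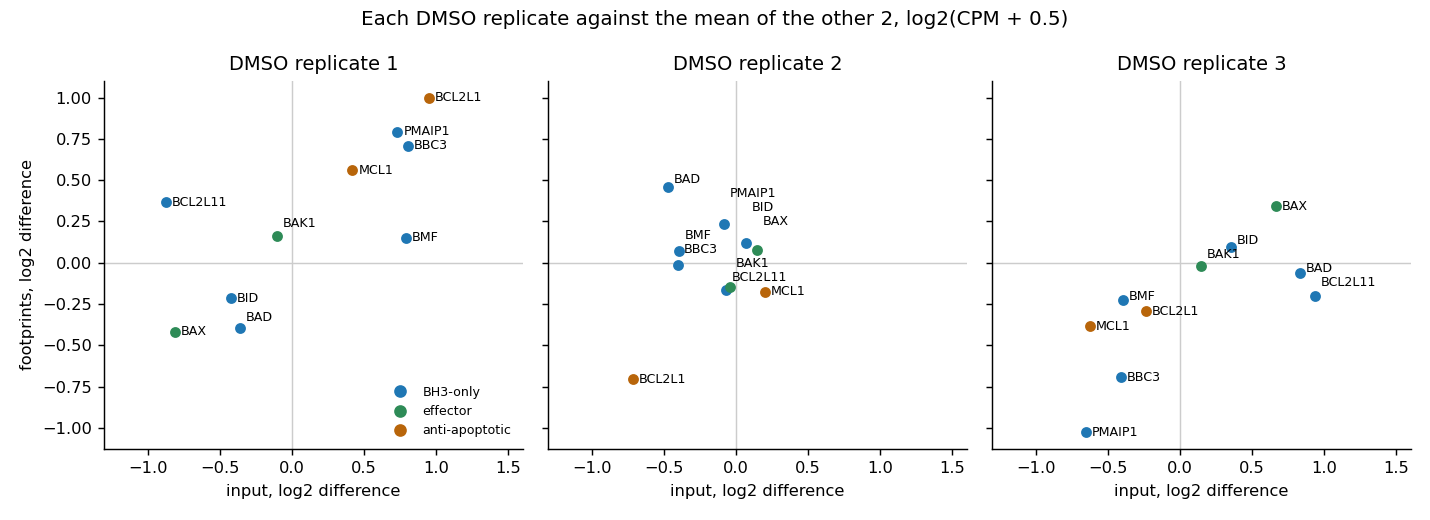
Each DMSO replicate against the mean of the other 2, as the difference in log2 of CPM plus 0.5, with input on the horizontal axis and footprints on the vertical axis, 1 point per member colored by role. In replicate 1, BCL2L1, PMAIP1, BBC3 and MCL1 lie high in both assays and BAX, BID and BAD low, while in replicate 3 PMAIP1, BBC3 and MCL1 lie low in both.

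Promoter sequences are shown for the 4 members with the largest footprint changes. The RefSeq windows (GRCh38.p14) run from 250 bases before to 50 bases after an annotated start, and 9 of 10 members had at least 1 window, 16 in all. MCL1 had none. Capitals mark matches to 4 motifs searched on both strands, chosen after the promoters had been seen: GTAAACA (forkhead factors such as FOXO), CCGGAAGT (ETS factors), TGANTCA (AP-1) and TGACGTCA (cAMP response element). These motifs share no overlap in the windows shown.
BMF (chr15:40108830-40109129, minus strand): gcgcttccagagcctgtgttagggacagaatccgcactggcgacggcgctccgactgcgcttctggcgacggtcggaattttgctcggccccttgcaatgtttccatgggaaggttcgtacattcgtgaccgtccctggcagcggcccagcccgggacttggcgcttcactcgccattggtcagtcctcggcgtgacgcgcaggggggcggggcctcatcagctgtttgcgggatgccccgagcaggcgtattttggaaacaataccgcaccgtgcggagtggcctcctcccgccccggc
PMAIP1 (chr18:59899746-59900045, plus strand): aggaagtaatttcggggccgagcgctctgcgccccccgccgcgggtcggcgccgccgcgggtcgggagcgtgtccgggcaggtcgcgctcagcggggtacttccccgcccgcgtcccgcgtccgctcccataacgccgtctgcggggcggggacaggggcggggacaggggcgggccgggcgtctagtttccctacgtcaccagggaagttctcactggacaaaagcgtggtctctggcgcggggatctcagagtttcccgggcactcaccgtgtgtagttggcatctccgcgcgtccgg
BCL2L1 (chr20:31723914-31724213, minus strand): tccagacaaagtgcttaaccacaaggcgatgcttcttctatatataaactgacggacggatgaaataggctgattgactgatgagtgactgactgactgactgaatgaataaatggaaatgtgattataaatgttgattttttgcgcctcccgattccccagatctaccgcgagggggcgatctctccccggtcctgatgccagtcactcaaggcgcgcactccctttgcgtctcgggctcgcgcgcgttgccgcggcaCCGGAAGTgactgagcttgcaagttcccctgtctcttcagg
BCL2L11 (chr2:111120664-111120963, plus strand): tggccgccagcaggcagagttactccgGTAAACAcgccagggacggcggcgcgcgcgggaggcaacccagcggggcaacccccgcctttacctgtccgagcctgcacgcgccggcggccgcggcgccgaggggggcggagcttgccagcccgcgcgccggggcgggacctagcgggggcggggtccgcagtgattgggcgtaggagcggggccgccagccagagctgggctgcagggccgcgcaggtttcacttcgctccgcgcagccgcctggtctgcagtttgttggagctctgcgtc

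BCL2L11 held GTAAACA 223 bases before its start, and 3.42% of 35116 windows hold this motif. BCL2L1 held CCGGAAGT 9 bases after its start, in the first of its 2 windows, against 4.14% of all windows. BBC3, not printed, held TGAGTCA 113 bases before its start, and TGANTCA is present in 7.71% of all windows. TGACGTCA, present in 1.85% of windows, matched no member. Each share is per motif and per window, whereas 4 motifs were searched in 16 windows, so single matches carry little weight. The windows of BMF and PMAIP1 held none of the 4 motifs, which says only that these letters are not within these 300 bases.

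Levels were compared between genes per kilobase of coding sequence, as CPM per kb. In DMSO footprints the order was PMAIP1 at 1180, MCL1 at 208, BCL2L1 at 109, BAX at 106, BID at 53.1, BBC3 at 32.8, BAD at 28.7, BCL2L11 at 7.85, BAK1 at 7.78 and BMF at 0.338 CPM per kb. BCL2L1 and BAX, BBC3 and BAD, and BCL2L11 and BAK1 did not differ beyond the spread of their libraries, whereas the other neighbors in this order did not overlap. Under trametinib the footprint order was PMAIP1 at 297, MCL1 at 188, BAX at 141, BID at 68.7, BCL2L1 at 55.3, BBC3 at 36.9, BMF at 23.3, BAD at 22.8, BCL2L11 at 13.8 and BAK1 at 6.78 CPM per kb, and only BMF and BAD overlapped. BCL2L1 thus moved from the third to the fifth place and BMF from the tenth to the seventh. The coding sequence of PMAIP1 is only 162 bases long, so its value per kilobase depends more than the others on reads near the start and stop codons.

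In DMSO input the order was PMAIP1 at 331, BCL2L1 at 234, MCL1 at 84.9, BAX at 82.1, BID at 40.2, BAD at 39.4, BBC3 at 26.9, BAK1 at 16.4, BCL2L11 at 3.42 and BMF at 0.221 CPM per kb. PMAIP1 and BCL2L1 overlapped, as did MCL1 and BAX, BID and BAD, and BAD and BBC3. BCL2L1 ranked above MCL1 in input and below it in footprints. Accordingly their DMSO ribosome densities, as footprint CPM over input CPM, lay far apart, at 0.462 ± 0.0116 for BCL2L1 and 2.48 ± 0.367 for MCL1 (SD, n = 3). Among 10447 genes with at least 10 input reads on average, BCL2L1 was at percentile 15.6 and BAK1 at 16.2, while MCL1 was at 93.7 and PMAIP1 at 98.1. BID, BAX and BBC3 lay between at 68.9, 67.7 and 64.2, and BAD at 34.0. Input reads of BCL2L11 and BMF were too few for this ratio.

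**Figure D4:**
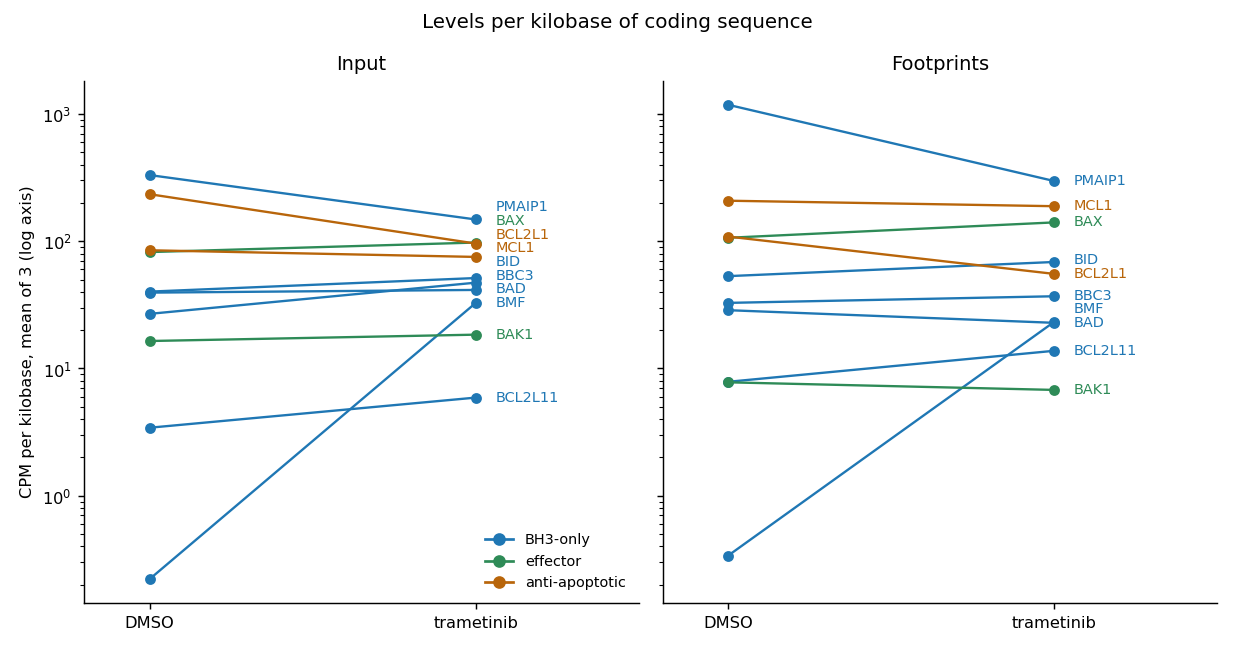
Mean level of each member in CPM per kilobase of coding sequence (log axis, n = 3), in DMSO and trametinib, for input and footprints, colored by role. BMF rises from the bottom to the level of BAD, PMAIP1 stays the highest while it falls, and BCL2L1 drops below BID in footprints.

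BH3-only and anti-apoptotic members were then set side by side. In input, 2 of 6 BH3-only genes were higher and 1 lower, with a median change of 0.58, while of the 2 anti-apoptotic genes 0 were higher and 1 lower, with a median of -0.73. In footprints it was 3 higher and 1 lower of 6 with a median of 0.27, against 0 higher and 1 lower of 2 with a median of -0.56. The background over the whole table was 13.9% called up and 15.5% called down in input, for footprints 24% and 24.4%, with a median of 0.00 in both assays. With DMSO replicate 1 left out, the BH3-only median was 0.35 in input and 0.39 in footprints, and the anti-apoptotic median was -0.48 and -0.25. Because BMF is the highest of the 6 values, its fitted size does not enter the median. The effectors had 0 of 2 called in input and 1 of 2 higher in footprints. In ribosome density the medians were -0.48 for BH3-only, -0.08 for effector and 0.20 for anti-apoptotic genes, with 0 called in each and 0.03 over all genes. Lists of 2 and 6 genes chosen with these data known carry no test of their own, and the difference between the roles was not tested.

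As a sum of levels per kilobase, the ratio of BH3-only to anti-apoptotic members in input was 1.24, 1.61 and 1.40 in the DMSO libraries and 1.96, 2.04 and 1.74 in the trametinib libraries. In footprints the same ratio was 4.05, 5.24 and 3.09 in DMSO and 1.81, 2.12 and 1.76 under trametinib. It was thus higher under trametinib in input and lower in footprints, without overlap in either assay. Without PMAIP1, the ratio was 0.372 ± 0.131 in DMSO and 1.04 ± 0.0664 under trametinib in input, and 0.408 ± 0.104 and 0.681 ± 0.0604 in footprints (SD, n = 3), higher under trametinib in both assays. Summed as CPM without the coding length, the ratio was 0.471 in DMSO and 0.848 under trametinib in input, and 0.891 and 0.603 in footprints. The sum weighs mRNAs by abundance and says nothing of protein amounts, which were not analysed here.

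The rest of the apoptosis machinery was examined in further gene lists with 70 genes in all, of which 63 were tested. In input 14 were higher (22.2%) and 13 lower (20.6%), in footprints 15 higher (23.8%) and 14 lower (22.2%), and in ribosome density 0 were called with edgeR, where 1, ATF4, had an unadjusted p-value under 0.05 and was called with DESeq2 (-1.77, adjusted p = 0.0399). These shares can be read against the 24% and 24.4% of all genes in footprints and the 13.9% and 15.5% in input. Without the library of DMSO replicate 1 the counts were 17 higher and 13 lower in input and 21 higher and 17 lower in footprints. Over all 12000 genes these fits called 1758 higher and 2051 lower in input, against 1670 and 1857 with all libraries. In footprints they called 3503 higher and 3522 lower, against 2878 and 2934.

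Among other BCL2 family genes, 8 of 13 were tested, 3 rose and 1 fell in each assay. Of all tested genes 13.9% rose and 15.5% fell in input, and 24% and 24.4% in footprints. BCL2L12 fell, with a log2 change of -2.05 in input and -2.27 in footprints (adjusted p = 8.61e-05 in footprints). BCL2L15 rose by 3.75 in footprints (SE 0.37, adjusted p = 3.46e-05), from 0.599 to 8.15 CPM. It had 7, 6 and 13 footprint reads in DMSO and 113, 144 and 127 under trametinib, and it passed the filter on low counts through its trametinib footprints. BIK, a BH3-only protein of the endoplasmic reticulum, rose by 1.00 in input and 0.82 in footprints (adjusted p = 0.000514), and BNIP3L, a mitophagy receptor, by 0.57 and 0.43 (adjusted p = 0.00749). The input call of BNIP3L was lost without DMSO replicate 2 or 3 or trametinib replicate 1 or 2 (adjusted p 0.0541 to 0.118). BCL2 itself, the founding member, had 18 footprint reads over the 3 DMSO libraries and was not tested. BCL2L2 shares coding sequence with a read-through gene, so reads of it may have been lost in counting.

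Downstream of the mitochondria, 9 of 10 apoptosome and caspase genes were tested, with a median change of -0.03 in input and 0.11 in footprints. APAF1, the scaffold of the apoptosome, rose by 0.88 in input (adjusted p = 0.00196). Its footprint change of 0.56 was not called (adjusted p = 0.0656), and it was 0.31 and called without DMSO replicate 1 (adjusted p = 0.0401) and 0.73 and called without replicate 3 (adjusted p = 0.0368). CYCS, which encodes cytochrome c, fell, with -1.17 in input and -1.02 in footprints (adjusted p = 0.00016). Of the inhibitor of apoptosis (IAP) family 5 of 6 were tested, 1 fell in input, and 1 rose and 1 fell in footprints. BIRC5, or survivin, which also serves in mitosis, fell, with -3.89 in input and -3.83 in footprints (adjusted p = 6.95e-07), and BIRC2 rose by 0.38 in footprints (adjusted p = 0.0399). The BIRC2 call was lost when any of the other 5 footprint libraries than DMSO replicate 1 was left out (adjusted p 0.0526 to 0.175), and its input change of 0.39 was 0.70 and called without DMSO replicate 1 (adjusted p = 0.00432).

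In the death receptor pathway all 10 genes were tested, with 3 higher and 2 lower in input and 3 higher and 3 lower in footprints. Both TRAIL receptors fell, TNFRSF10A with -2.01 in input and -2.15 in footprints (adjusted p = 5.55e-05) and TNFRSF10B with -1.25 and -1.41 (adjusted p = 0.0226). TNFRSF10B had 375, 129 and 107 CPM in DMSO input and 407, 132 and 111 CPM in DMSO footprints, against 81.8 to 90.8 and 77.3 to 88.3 CPM under trametinib. DMSO replicate 1 thus stood far above the other libraries, and without it the changes were -0.47 in input (adjusted p = 0.0319) and -0.57 in footprints (adjusted p = 0.000428). The calls of TNFRSF10B were lost when any trametinib library of the same assay was left out (adjusted p 0.053 to 0.065 in input and 0.0651 to 0.0742 in footprints). The initiator caspase gene CASP10 rose by 1.195 in input and 1.18 in footprints (adjusted p = 0.0204), and the adaptor TRADD by 1.02 and 1.18 (adjusted p = 0.000188). The footprint change of CASP10 was 1.86 without DMSO replicate 1 (adjusted p = 4.63e-07), and its call was lost without DMSO replicate 2 or any trametinib library (adjusted p 0.0525 to 0.0742). In input, 0 of 9 regulators of MCL1 and BIM protein turnover were called, against 29.4% of all genes in either direction. Of these 9, 1 had an unadjusted p-value under 0.05. In footprints 3 of 9 were called, against 48.4% of all genes. There, TRIM2, a ubiquitin ligase known to act on BIM, rose by 0.97 (adjusted p = 0.0132), although its coding sequence overlaps another annotated gene. FBXO4, a ubiquitin ligase subunit, fell (-0.52, adjusted p = 0.0228), and USP9X, which removes ubiquitin from MCL1, rose by 0.42 (adjusted p = 0.0136). These calls were lost without trametinib replicate 1 for TRIM2 (adjusted p = 0.0674), replicate 2 or 3 for FBXO4 (adjusted p = 0.0778 and 0.0678) and replicate 1 or 3 for USP9X (adjusted p = 0.0739 and 0.0581).

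Of 10 transcription factors known to act on the family, 2 were higher and 5 lower in input, against 13.9% and 15.5% of all genes, and 2 were higher and 4 lower in footprints, against 24% and 24.4%. DDIT3, or CHOP, a stress factor upstream of several BH3-only genes, fell, with -4.04 in input and -5.13 in footprints (adjusted p = 9.80e-05). ATF4, the factor of the integrated stress response that acts on DDIT3 and PMAIP1, fell, with -1.49 in input and -3.25 in footprints (adjusted p = 0.000397). Its ribosome density change of -1.73 had the lowest p-value of this list (unadjusted p = 0.00407, edgeR adjusted p = 0.224). E2F1, which passed the filter through its DMSO libraries, fell, with -4.27 in input and -3.59 in footprints (adjusted p = 0.000691), and FOXO4, a forkhead factor that the AKT kinase inhibits, rose by 1.13 and 0.90 (adjusted p = 0.00268).

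**Figure D5:**
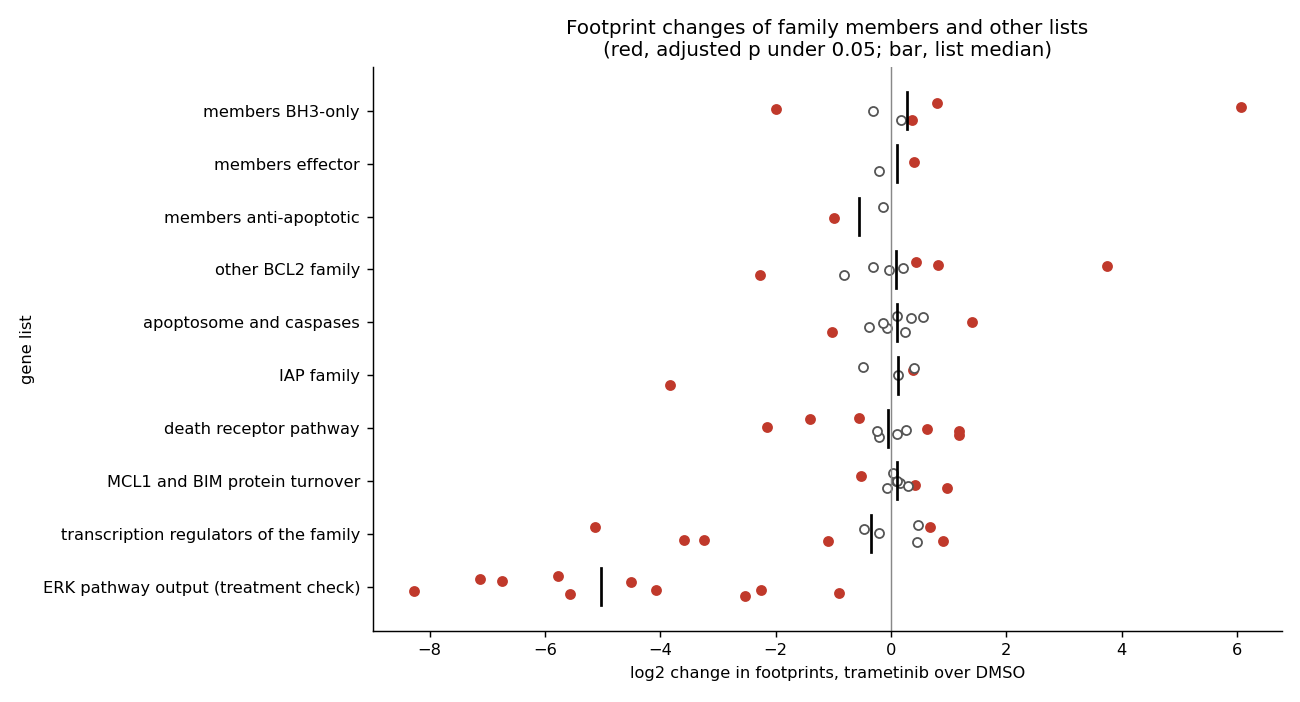
Log2 change in footprints of the tested genes of the family, of 6 further apoptosis lists and of the ERK pathway output list, trametinib over DMSO, with red points for adjusted p under 0.05, open points for genes not called and a bar at the list median. Family members spread from -1.99 for PMAIP1 to 6.07 for BMF, the other apoptosis lists spread to both sides of 0, and the ERK pathway output genes all lie below it.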

How the data were processed

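Input and footprint libraries of HCT116 cells were analysed from 1 deposited table. Per the methods of the study, footprints were taken from the monosome fraction after RNase I digestion, sized to 25 to 35 nt, and input RNA came from the same lysates. The authors removed rRNA and tRNA reads with Bowtie 1.2.2 and counted reads within reading frames of Gencode version 38 that belong to 1 gene symbol, and the deposited counts per gene were used here. The table also holds the authors' normalized signal per library (DESeq2 1.46.0), found to be the counts times 1 constant in all 12 libraries, and columns of the authors' own log2 fold changes and p-values, which were not used.

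The test covered the 12000 of 15798 genes that reached 10 counts in 3 or more of the 12 libraries, and it was run with edgeR 4.0.16 in R 4.3.3 (quasi-likelihood, TMM), fitting 6 input libraries, 6 footprint libraries, or all 12 for ribosome density. limma 3.58.1 and DESeq2 1.42.0 served as alternatives, and scripts were tested on simulated data. BCL2L11 passed the filter through its footprints. SEs are Wald SEs from the same fit. Coordinates and coding lengths came from Gencode version 44 (GRCh38), promoters from RefSeq. Counting intervals and p-values do not cover differences between cultures that the libraries do not sample.

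Counts over the further lists include genes and 1 list that are not reported here. The members and the gene lists were chosen with earlier results of these data known. Beyond the 10 members, named genes were those called in ribosome density and, per list, up to 4 with the largest change among genes called in input or footprints with a mean of at least 20 counts in that assay. The treatment and identity checks are given as counts with the first 3 genes at most. BCL2, BCL2L2, VIL1, CDH17 and the untested or near-0 markers are named as exceptions to that rule. Same-numbered libraries were tested for pairing by the correlation of their deviations from group means over 7669 genes. Between treatments r was 0.05 to 0.34 in input and 0.12 to 0.29 in footprints, and between assays it was -0.13 to 0.82. Libraries with different numbers were not correlated, so these values cannot decide whether the numbers mark pairs.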

Additional observations from a re-analysis of the deposited data

How the results depend on the processing

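Over the alternatives, 457 member changes kept their direction and side of the threshold, 14 lost the call, 2 gained it and 21, none of them called, turned sign. In input, the members called higher numbered 1 with all 12 libraries in 1 fit, and 1 to 2 when a library was left out, with 2 lower each time. In footprints, leaving out a library gave 2 to 5 higher and 2 to 3 lower. Ribosome density called 0 members under every alternative run. The replicate number as a block (replicate block) gave 2 higher and 2 lower members in input, 4 and 2 in footprints and 0 in ribosome density, and it changed no member's call. With a block for each treatment and replicate number, 0 members were called, 3 had an unadjusted p-value under 0.05, and the genes called in ribosome density over all genes went from 6 higher and 90 lower to 25 and 135 (DESeq2: 35 and 150).

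Of the wider lists, 24 genes were higher in footprints with library totals, a scaling that shifts the median of all genes by 0.19 in footprints and 0.17 in ribosome density. Leaving out a library gave 9 to 21 higher and 12 to 17 lower in footprints, and 11 to 17 higher and 11 to 13 lower in input. Over all genes these fits called 2045 to 3503 higher and 2245 to 3522 lower in footprints. In input they called 1084 to 1758 higher and 1267 to 2051 lower. In ribosome density 1 wider gene, ATF4, was called lower with DESeq2 (-1.77), with a block for each treatment and replicate number (-1.54) and without DMSO replicate 1 in both assays (-1.35, an alternative chosen after seeing the data), and 0 to 1 when a library was left out.

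Changes that turned sign were MCL1 in footprints with library totals (0.0411), BCL2L11 in ribosome density with median-of-ratios scaling (-0.0148) and TMM within each assay (-0.0121), and, when a library was left out, BAD in input (-0.0857 to 0.412), BBC3 (-0.0411 to 0.475) and MCL1 (-0.268 to 0.0685) in footprints, and in ribosome density BCL2L11 (-0.432 to 0.329), BID (-0.0721 to 0.187), BAX (-0.0491 to 0.422), MCL1 (-0.0712 to 0.280) and BCL2L1 (-0.0384 to 0.762). When a library was left out, the median change of BH3-only genes was 0.35 to 0.59 in input, 0.18 to 0.39 in footprints and -0.59 to -0.31 in ribosome density, and that of anti-apoptotic genes -0.87 to -0.48, -0.70 to -0.25 and -0.0548 to 0.521. The summed ratio of BH3-only to anti-apoptotic genes, without coding length, was 0.471 in DMSO and 0.848 under trametinib in input and 0.891 and 0.603 in footprints. Without PMAIP1 it was 0.372 and 1.04 in input and 0.408 and 0.681 in footprints. The causes of these differences were not tested. Input depth limits ribosome density for members with few input reads: the filter on input libraries removes BCL2L11, and DESeq2 gave no adjusted p-value in ribosome density for BCL2L11, BMF and BAK1.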
